A study of Homo sapiens with 12 samples.

Results

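The clustered replication-dependent histone genes encode the H1 linker histones and the H2A, H2B, H3 and H4 core histones that package newly made DNA. They were taken from the array by symbol, as every transcript cluster (the set of probes for 1 gene) whose single symbol was H1-1 to H1-6 or a numbered H2AC, H2BC, H3C or H4C gene. This rule uses names and no measured value, and gave 58 genes among the 17958 genes tested: 6 for H1, 14 for H2A, 16 for H2B, 9 for H3 and 13 for H4. Each of the 58 had 1 transcript cluster. As background, these genes lie close together in the genome, carry no introns and are transcribed mainly in S phase, when the cell replicates its DNA. Their mRNAs usually end in a short stem-loop bound by the protein SLBP in place of a poly(A) tail, and are degraded when replication stops. H2A and H2B genes are often arranged head to head around a shared promoter, so that a pair is read outward from a short stretch of DNA.

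The samples were from BT549, a human triple-negative breast cancer cell line, in 4 groups of 3 biological replicates. Cells of the control siRNA group received a control siRNA and cells of the ERβ2 siRNA group received siRNA against ERβ2, a splice form of estrogen receptor beta from the ESR2 gene, with RNA taken at 48 h. The EV group received empty pcDNA3 and the ERβ2 plasmid group received pcDNA3 carrying a FLAG-tagged ERβ2 cDNA, with RNA taken at 24 h. The methods name different transfection reagents and starting densities for siRNA and for plasmid, and describe 2 sets of ERβ2 siRNA without saying which was used for the arrays. Knockdown below is ERβ2 siRNA minus control siRNA, overexpression is ERβ2 plasmid minus EV, and all values are log2 signals on the Affymetrix Human Gene 1.1 ST array.

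The 12 arrays had median log2 signals of 5.04 to 5.14. The deposited ESR2 signal was low and did not check the siRNA labels, with a knockdown change of -0.02 (limma adjusted p = 0.913). In overexpression ESR2 was 0.47 higher and did not pass the test (limma adjusted p = 0.449), with all plasmid arrays (4.35 to 4.72) above all EV arrays (3.93 to 4.08). Mesenchymal markers known for BT549 were bright (VIM mean log2 12.2, CD44 12.3, FN1 11.3), ESR1 (3.93), PGR (3.47) and EPCAM (3.95) were dim, and the other cell-type markers PTPRC, PECAM1, CD3E and ALB lay between 3.2 and 3.9. ERBB2 was at 8.0. Unlike EPCAM, the other 2 epithelial markers were not dim, with KRT8 at 6.63 to 8.39 and KRT18 at 9.05 to 11.15 over the 12 arrays. The epithelial keratins KRT8 and KRT18 rose in knockdown by 0.78 and 0.88 (limma adjusted p = 0.000767 and 0.000251). In EV minus control siRNA the same keratins fell by 0.59 and 0.89 (limma adjusted p = 0.0164 and 0.00173), with all EV arrays below all control siRNA arrays, and their part in the histone results was not tested. A gene is said to have risen or fallen only where its limma adjusted p was 0.1 or less in a fit of all 17958 genes.

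The promoters of histone genes carry short elements that differ by class, and 6 of them are shown because their genes had some of the largest changes or the most divergent patterns described below. Each run is the 150 bases before the RefSeq start of the gene (GRCh38.p14), read 5′ to 3′ on the strand of the gene. Capitals mark 4 elements, searched on either strand. They are the CCAAT box, the TATA box in the form TATAAA, the octamer (ATTTGCAT), which the POU factor Oct-1 binds, and the core of the H4 element of HINFP (GGTCCG).
H2BC14: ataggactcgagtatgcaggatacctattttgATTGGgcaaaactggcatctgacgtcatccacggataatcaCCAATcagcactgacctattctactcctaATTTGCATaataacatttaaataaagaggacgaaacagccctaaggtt
H2BC21: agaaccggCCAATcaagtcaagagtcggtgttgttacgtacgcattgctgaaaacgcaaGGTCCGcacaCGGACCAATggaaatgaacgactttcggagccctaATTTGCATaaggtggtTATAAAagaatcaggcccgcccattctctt
H2BC8: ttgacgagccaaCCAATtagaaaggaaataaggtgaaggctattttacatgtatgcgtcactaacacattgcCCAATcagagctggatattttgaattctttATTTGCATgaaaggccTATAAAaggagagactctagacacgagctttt
H4C13: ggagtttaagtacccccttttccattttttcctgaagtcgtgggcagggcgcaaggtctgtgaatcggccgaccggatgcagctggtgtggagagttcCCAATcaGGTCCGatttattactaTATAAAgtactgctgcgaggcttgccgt
H4C4: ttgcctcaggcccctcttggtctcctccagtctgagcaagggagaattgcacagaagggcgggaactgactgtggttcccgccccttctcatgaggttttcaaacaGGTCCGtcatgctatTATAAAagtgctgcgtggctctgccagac
H4C8: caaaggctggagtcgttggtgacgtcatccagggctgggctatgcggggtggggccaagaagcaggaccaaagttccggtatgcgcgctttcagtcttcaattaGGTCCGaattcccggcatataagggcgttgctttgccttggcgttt
H2BC14 lies at chr6:27814872-27815021 on the plus strand, H2BC21 at chr1:149886683-149886832 on the minus strand and H2BC8 at chr6:26216689-26216838 on the minus strand. H4C13 lies at chr6:27873535-27873684 on the minus strand, H4C4 at chr6:26189113-26189262 on the minus strand and H4C8 at chr6:26285535-26285684 on the minus strand. In H2BC14 and H2BC8 the octamer starts 48 bases before the start of the gene, and in H2BC21 it starts 46 bases before. H2BC21 also holds GGTCCG on both strands, and the copy on the opposite strand overlaps a CCAAT box. In H4C13, H4C4 and H4C8 the H4 element starts 45, 44 and 46 bases before the start, and TATAAA was found in H4C13 and H4C4 but not in these letters in H4C8.

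Windows of 300 bases (250 before the start and 50 after) were present for 53 of the 58 genes, and H2AC12, H3C11, H3C12, H4C1 and H4C3 had no entry. The octamer ATTTGCAT was found in 10 of 13 H2A and 13 of 16 H2B windows and in none of the other classes, against 1.80% of 27305 promoters. GGTCCG was found in 10 of 11 H4 windows and in 1 each of the H2A, H2B and H3 windows, against 11.2% of all promoters. CCAAT was in every H1, H2A, H2B and H3 window and in 3 of 11 H4 windows (all promoters 35.7%), and TATAAA was in 35 of 53 (all promoters 12%). Of the E2F-type letters, TTTCGCG was in 12 of 53 windows (all promoters 1.35%) and TTTGGCG in 1 of 53 (all promoters 1.92%). These matches describe the letters only. H2A and H2B partners share much of 1 window, so their matches are not independent.

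In knockdown the histone genes were lower as a group. Of the 58 genes 45 fell, none rose (0 of 58) and 13 missed the threshold, where 17.5% of all genes tested fell and 18.3% rose. The median change was -0.28, with a range of -0.75 to 0.21, against a median of -0.03 over all genes. At an unadjusted limma p under 0.05 the counts were 47 lower and 0 higher, against 19.9% and 19.8% of all genes. The t-test named in the methods, with Benjamini-Hochberg adjustment, called 39 lower and 0 higher, and its share over all genes is not given here. All 3 ERβ2 siRNA arrays lay below all 3 control siRNA arrays for 48 of the 58 genes, a pattern seen in 21.3% of all genes, and the groups overlapped for the other 10. Most changes were small. Only H2AC15, H2BC14 and H2BC21 fell by at least 1.5-fold, which 1.26% of all genes did. In bulk RNA, fewer cells making histone mRNA and less histone mRNA per cell cannot be told apart.

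**Figure D1:**
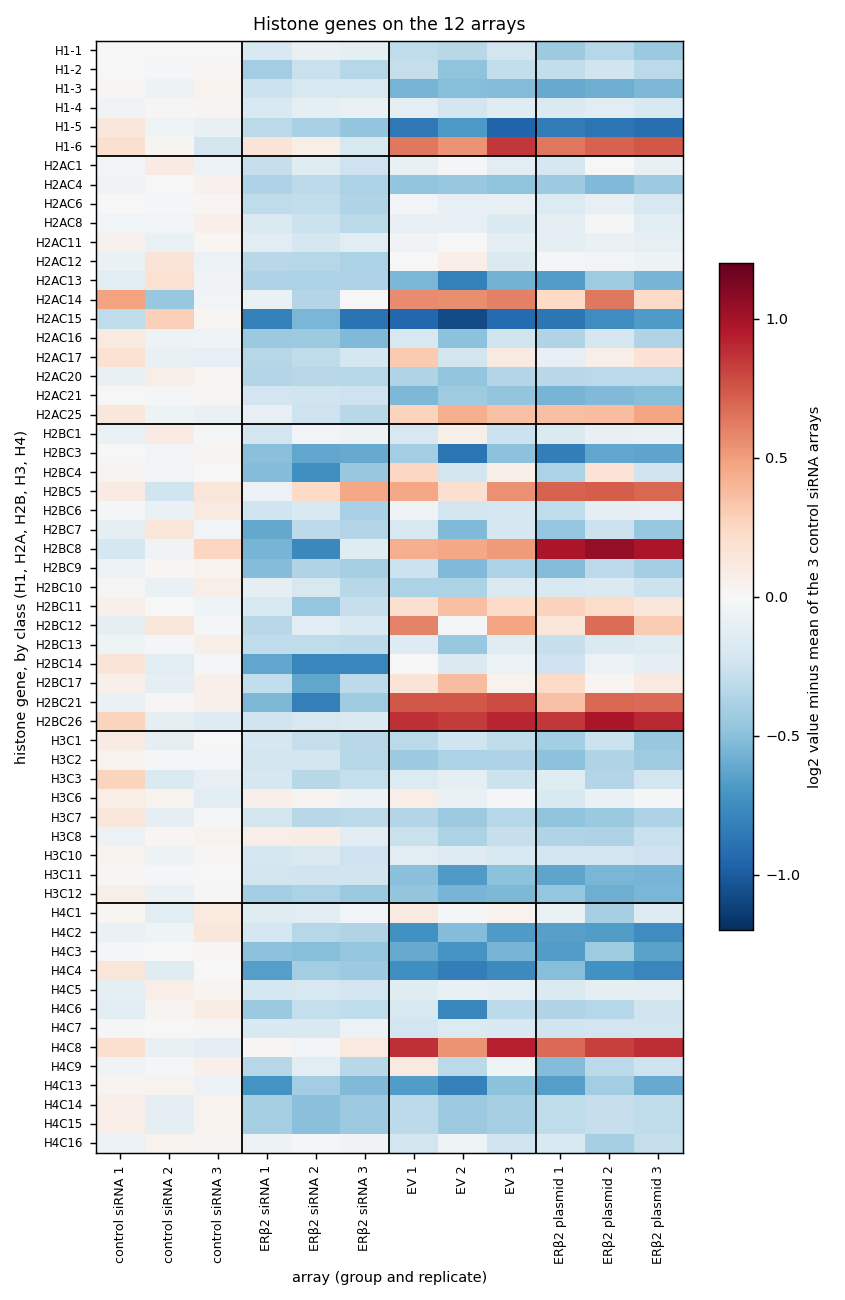
Each row is 1 of the 58 histone genes, grouped by class, and each column is 1 of the 12 arrays in 4 groups of 3; colour gives the log2 signal minus the mean of the 3 control siRNA arrays of that gene. The ERβ2 siRNA columns are mostly blue (45 genes fell), and the EV and ERβ2 plasmid columns hold a small set of red rows (9 genes were higher in EV than in control siRNA).

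All classes held genes that fell. In knockdown 13 of 14 H2A genes fell (median -0.30), 13 of 16 H2B genes fell (median -0.36), 10 of 13 H4 genes fell (median -0.31) and 6 of 9 H3 genes fell (median -0.26). Among H1 genes 3 of 6 fell (median -0.17). The medians are listed as descriptions, and differences between classes were not tested. By brightness, the 12 histone genes with a mean log2 signal of 9 to 11 all fell, where 22.4% of all genes in that range fell. Of the 8 histone genes at 11 or above 7 fell, against 12.5% of all genes in that range. Of the 7 genes with a mean under 5 (H1-6, H2AC1, H2BC1, H2BC6, H3C6, H4C7 and H4C9), 4 fell (14.2% of all genes under 5). Of the 9 genes at 5 to 7, 5 fell (17.3% of all genes in that range), and of the 22 at 7 to 9, 17 fell (20% of all genes). By the gene cluster of origin, 39 of 50 genes of the HIST1 cluster on chromosome 6 fell, as did 5 of 5 from HIST2 on chromosome 1, 1 of 2 from HIST3 and 0 of 1 from HIST4. H4C14 and H4C15, both counted in H4 and in HIST2 here, had the same deposited values on all 12 arrays and are 1 reading.

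**Figure D2:**
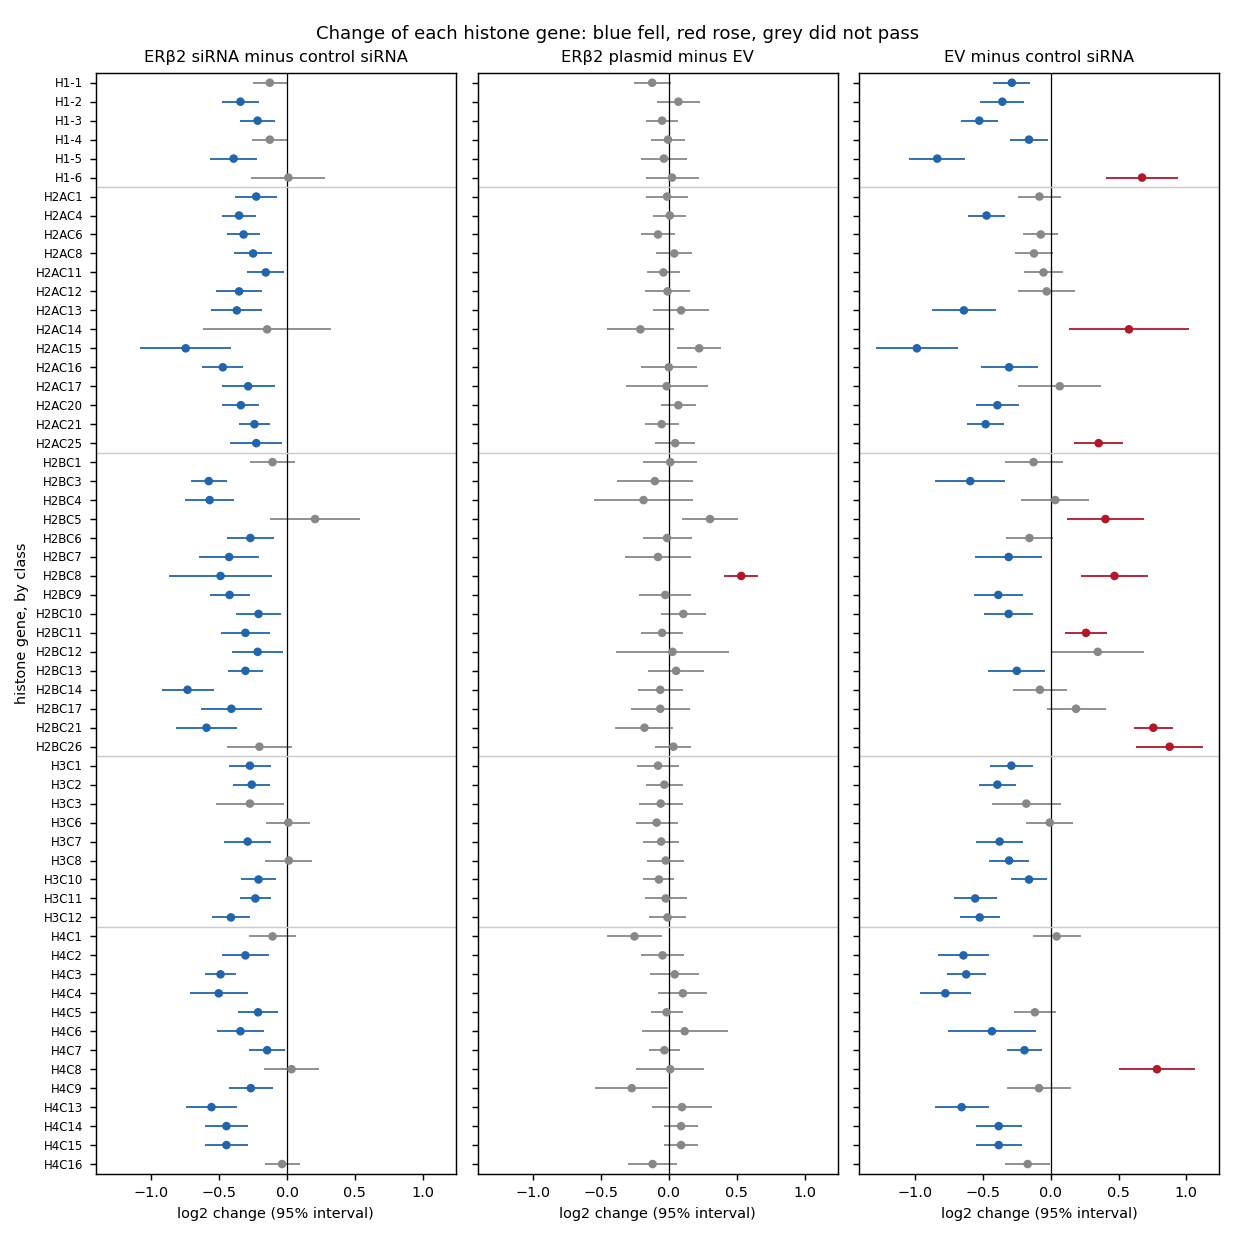
Points give the log2 change of each of the 58 histone genes with its 95% interval from limma, in ERβ2 siRNA minus control siRNA (left), ERβ2 plasmid minus EV (middle) and EV minus control siRNA (right), 3 arrays a group. Blue genes fell and red genes rose by the threshold of 0.1 on adjusted p: 45 and 0 on the left, 0 and 1 in the middle, 31 and 9 on the right.

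H2B, which pairs with H2A in the nucleosome, held 2 of the 3 genes that fell by at least 1.5-fold. H2BC14, also the brightest H2B probe set, read 11.97, 11.69 and 11.79 on the control siRNA arrays and 11.19, 11.03 and 11.03 on the ERβ2 siRNA arrays. The groups were well apart, and the signal fell to 0.602 of the control level (log2 -0.73, 95% interval -0.93 to -0.54, limma adjusted p = 0.000393). On the EV arrays it read 11.82, 11.64 and 11.75 and on the ERβ2 plasmid arrays 11.57, 11.75 and 11.70, so that plasmid and EV overlapped. H2BC21, an H2B gene whose transcript is also known in a polyadenylated form, read 8.88, 8.97 and 9.02 with control siRNA and 8.42, 8.14 and 8.53 with ERβ2 siRNA. It fell to 0.663 of control without overlap (log2 -0.59, 95% interval -0.82 to -0.37, limma adjusted p = 0.00266). Its plasmid-series signals were the higher ones, at 9.70, 9.70 and 9.74 for EV and 9.31, 9.65 and 9.64 for the ERβ2 plasmid. H2BC3 read 9.60, 9.57 and 9.64 with control siRNA and 9.10, 8.98 and 9.0 with ERβ2 siRNA. It too fell without overlap (log2 -0.58, 95% interval -0.71 to -0.44, limma adjusted p = 0.000198), and EV arrays at 9.19, 8.73 and 9.11 overlapped plasmid arrays at 8.77, 8.98 and 8.97. The H2B genes that did not pass in knockdown were H2BC1, a testis type, with H2BC5 and H2BC26. H2BC5 had the highest change of all 58 (log2 0.21, 95% interval -0.13 to 0.54).

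H2A genes encode the partner of H2B in the outer part of the nucleosome core. H2AC15 had the lowest change of the whole set, reading 8.98, 9.57 and 9.31 with control siRNA and 8.48, 8.74 and 8.40 with ERβ2 siRNA. The groups did not overlap and the signal fell to 0.596 of control (log2 -0.75, 95% interval -1.08 to -0.41, limma adjusted p = 0.00601), although the control arrays themselves were spread. EV arrays were lower still at 8.34, 8.21 and 8.35, and plasmid arrays were at 8.42, 8.54 and 8.61. H2AC16 read 8.70, 8.53 and 8.54 with control siRNA and 8.14, 8.15 and 8.06 with ERβ2 siRNA. It fell without overlap (log2 -0.47, 95% interval -0.62 to -0.32, limma adjusted p = 0.00108). H2AC13 read 9.51, 9.83 and 9.60 with control siRNA against 9.28, 9.27 and 9.28 with ERβ2 siRNA. Its treated arrays were nearly equal and all below control (log2 -0.37, 95% interval -0.56 to -0.18, limma adjusted p = 0.0112). H2AC21, the brightest H2A probe set, was 11.57, 11.56 and 11.58 in control and 11.34, 11.33 and 11.32 in knockdown. The change was small and the arrays were tightly grouped (log2 -0.24, 95% interval -0.36 to -0.12, limma adjusted p = 0.00847). H2AC14 alone among the H2A genes did not pass. Its control arrays ran from 6.65 to 7.59 and covered all the ERβ2 siRNA arrays (log2 -0.15, 95% interval -0.62 to 0.33).

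H4 forms the centre of the nucleosome with H3. H4C13 read 7.63, 7.64 and 7.53 with control siRNA and 6.88, 7.18 and 7.07 with ERβ2 siRNA. It fell to 0.68 of control with no overlap (log2 -0.56, 95% interval -0.74 to -0.37, limma adjusted p = 0.00144). EV arrays stood at 6.93, 6.79 and 7.11 and plasmid arrays at 6.94, 7.18 and 7.0. H4C4 was 7.99, 7.70 and 7.84 in control and 7.18, 7.43 and 7.41 in knockdown. All knockdown arrays were below control (log2 -0.50, 95% interval -0.72 to -0.29, limma adjusted p = 0.00486), and EV (7.11, 7.01 and 7.08) and plasmid arrays (7.33, 7.12 and 7.06) were low as well. H4C3 read 11.13, 11.15 and 11.16 with control siRNA and 10.65, 10.64 and 10.68 with ERβ2 siRNA. It fell (log2 -0.49, 95% interval -0.61 to -0.37, limma adjusted p = 0.000239). H4C14, the brightest H4 probe set, read 11.90, 11.70 and 11.86 with control siRNA and 11.42, 11.32 and 11.38 with ERβ2 siRNA. It fell without overlap (log2 -0.45, 95% interval -0.60 to -0.29, limma adjusted p = 0.00177). H4C15 had the same deposited value as H4C14 on all 12 arrays, so the pair is 1 reading, and counted once the set holds 57 readings of which 44 fell in knockdown. More generally, histone genes of a class have near-identical coding sequences, and probe sets may share signal between genes. A further 18 transcript clusters with several histone symbols were kept out for that reason. Of the H4 genes, H4C1, H4C8 and H4C16 did not pass.

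H3 carries the tail on which many chromatin marks are placed. H3C12 read 9.62, 9.47 and 9.56 with control siRNA and 9.14, 9.17 and 9.10 with ERβ2 siRNA. It fell without overlap (log2 -0.41, 95% interval -0.55 to -0.28, limma adjusted p = 0.00135). H3C7 read 9.16, 8.91 and 9.0 in control and 8.80, 8.69 and 8.71 in knockdown, and H3C1 read 10.32, 10.12 and 10.23 and 10.02, 9.94 and 9.89. Both fell with no overlap, H3C7 by a log2 change of -0.29 (95% interval -0.46 to -0.12, limma adjusted p = 0.0209). H3C1 fell by a log2 change of -0.27 (95% interval -0.43 to -0.12, limma adjusted p = 0.0192). H3C11, the brightest H3 probe set, was 12.08, 12.06 and 12.07 with control siRNA and 11.85, 11.83 and 11.83 with ERβ2 siRNA. The small difference stood clear of a range of 0.02 within each group (log2 -0.23, 95% interval -0.35 to -0.12, limma adjusted p = 0.00978). H3C3, H3C6 and H3C8 did not pass. H3C3 missed narrowly (log2 -0.27, 95% interval -0.52 to -0.02, limma adjusted p = 0.1 after rounding), with all its treated arrays below control. H3C6 and H3C8 each changed by log2 0.01, with groups that overlapped.

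H1 linker histones bind where DNA enters and leaves the nucleosome, and H1-1 to H1-5 are made in dividing somatic cells. H1-5 read 11.20, 11.01 and 10.97 with control siRNA and 10.74, 10.67 and 10.59 with ERβ2 siRNA. It fell without overlap (log2 -0.39, 95% interval -0.57 to -0.22, limma adjusted p = 0.00573). H1-2 went from 9.30, 9.27 and 9.32 to 8.88, 9.03 and 8.95. It fell too (log2 -0.34, 95% interval -0.48 to -0.21, limma adjusted p = 0.00321). H1-3 was 8.35, 8.28 and 8.38 in control and 8.08, 8.14 and 8.14 in knockdown. This was a smaller fall, still without overlap (log2 -0.22, 95% interval -0.34 to -0.09, limma adjusted p = 0.0209). H1-4, the brightest H1 probe set, read 12.59, 12.65 and 12.67 and 12.45, 12.52 and 12.56. All its treated arrays were below control, yet it did not pass (log2 -0.13, 95% interval -0.26 to 0.00, limma adjusted p = 0.137), and it passed in 4 of 21 alternative settings. H1-6, the testis H1, shared the smallest change of the 58 genes with H3C6 (log2 0.01). H1-6 read 4.07, 3.91 and 3.66 in control and 4.03, 3.95 and 3.69 in knockdown. These groups overlapped fully (log2 0.01, 95% interval -0.26 to 0.28), on a dim probe set.

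Divergent H2A and H2B pairs let both sides of 1 promoter be set side by side, and 9 pairs among the 58 genes had starts 215 to 248 bases apart. In knockdown both partners fell in 6 of the 9 pairs. Over each whole class 13 of 14 H2A and 13 of 16 H2B genes fell. Opposite calls were not possible there, as none of the 58 genes rose. The H2B change was the lower one in 6 of 9 pairs in knockdown. The same held for 6 of 9 in overexpression and 2 of 9 in EV minus control siRNA. In knockdown H2AC6 and H2BC4 changed by log2 -0.32 and -0.57, H2AC8 and H2BC8 by -0.25 and -0.49, and H2AC20 and H2BC21 by -0.34 and -0.59. The widest gap was between H2AC14 (-0.15, not passed) and H2BC14 (-0.73, fell). The difference between partners was not tested. In EV minus control siRNA 1 pair had both fall (H2AC13 and H2BC13), 1 had both rise (H2AC25 and H2BC26) and 1 had opposite calls. That pair was H2AC20, which fell by -0.39, and H2BC21, which rose by 0.76 on the log2 scale.

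**Figure D3:**
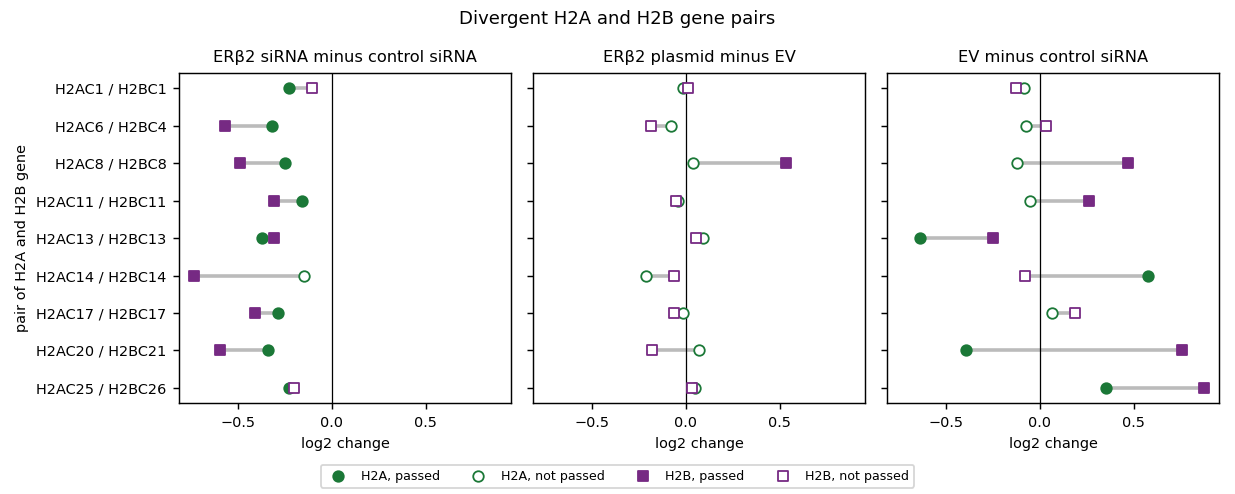
Log2 changes of the H2A gene (green circle) and the H2B gene (purple square) of 9 divergent pairs in the 3 comparisons, with filled symbols for genes past the threshold of 0.1 and open ones for the others. Both partners lie left of 0 in knockdown in all 9 pairs. In EV minus control siRNA the partners lie on opposite sides in the pairs of H2BC4, H2BC8, H2BC11, H2BC14 and H2BC21. Of these, only H2AC20 and H2BC21 both passed.

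Overexpression moved 1 histone gene past the threshold. Of the 58 genes 0 fell, 1 rose and 57 did not pass, and over all genes tested 0.0111% rose (2 genes, H2BC8 and the cytokine gene LIF) and 0 fell. The median change was -0.02. At an unadjusted limma p under 0.05 2 histone genes were lower and 3 higher, against 4.06% and 2.96% of all genes, and the methods' t-test after Benjamini-Hochberg called 0 in either direction. For 57 of the 58 genes the 95% interval excluded a change of 1.5-fold in either direction, and the bounds ran from -0.55 to 0.66. All plasmid arrays lay above all EV arrays for 6 genes and below them for 4, where 5.35% and 6.67% of all genes did so. EV replicate 2 was the lowest EV array for 35 of the 58 genes and ERβ2 plasmid replicate 1 the lowest plasmid array for 36. Without EV replicate 2 the counts were 0 fallen and 1 risen.

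H2BC8 was the gene that rose. It read 8.03, 8.06 and 8.10 on EV arrays and 8.57, 8.65 and 8.57 on ERβ2 plasmid arrays, with narrow spread in both groups. The increase was 1.45-fold (log2 0.53, 95% interval 0.41 to 0.66, limma adjusted p = 0.0794), but the call was kept in only 8 of 21 alternative settings, with adjusted p from limma or the t-test between 0.00267 and 0.786. It was lost when any array other than EV replicate 2 was left out (limma adjusted p = 0.442 to 0.704). In the siRNA groups H2BC8 read 7.38, 7.55 and 7.85 in control and 7.04, 6.82 and 7.45 in knockdown, and these groups overlapped. It fell (log2 -0.49, 95% interval -0.87 to -0.11, limma adjusted p = 0.0597), and lost that call without control siRNA replicate 2 or 3 or ERβ2 siRNA replicate 1 or 2 (limma adjusted p = 0.112, 0.17, 0.147 and 0.15). Its divergent partner H2AC8 did not pass in overexpression (log2 0.04, 95% interval -0.09 to 0.17).

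The knockdown change minus the overexpression change was then tested for each gene in 1 fit of the 12 arrays. Knockdown was measured at 48 h and overexpression at 24 h, with different reagents and starting densities. The part of these in a difference cannot be told apart from that of the ERβ2 level. The difference was below 0 at the threshold for 28 of the 58 histone genes and above 0 for none (0 of 58), against 11.3% and 15% of all genes. At an unadjusted limma p under 0.05 37 were below 0 and 0 above, against 15% and 17.4% of all genes. The median difference was -0.26, against -0.02 over all genes. For the histone genes the median change was -0.28 in knockdown and -0.02 in overexpression, so the difference mostly repeats the knockdown change. H2BC8 had the largest difference (log2 -1.02, 95% interval -1.45 to -0.60, limma adjusted p = 0.00271). H2AC15 followed (log2 -0.97, 95% interval -1.36 to -0.58, limma adjusted p = 0.00221). The smallest p belonged to the shared reading of H4C14 and H4C15 (log2 -0.54, limma adjusted p = 0.000786), then to H2BC14 (-0.67, limma adjusted p = 0.00128) and H4C3 (-0.53, limma adjusted p = 0.00143). The 10 smallest also held H2AC20 and H2AC4. H2AC20 went from 10.91, 11.07 and 11.02 in control to 10.65, 10.67 and 10.66 with ERβ2 siRNA, while EV (10.64, 10.53 and 10.65) and plasmid (10.67, 10.68 and 10.68) were nearly level. H2AC4 went from 8.54, 8.58 and 8.64 to 8.22, 8.27 and 8.21, with EV at 8.11, 8.13 and 8.10 and plasmid at 8.15, 8.06 and 8.15.

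The 2 control groups also differed in histone signal. EV and control siRNA differ in time after transfection, reagent and nucleic acid at once, and these cannot be told apart. Of the 58 genes 31 were lower in EV, 9 were higher and 18 did not pass, against 22.4% lower and 19.2% higher over all genes. The median difference was -0.19, against -0.06 over all genes. All EV arrays were below all control siRNA arrays for 33 genes and above them for 9, where 26.2% and 21% of all genes did so. Without EV replicate 2 the counts were 30 lower and 10 higher. At 1.5-fold or more 8 genes were lower and 4 higher, where 1.3% and 5.57% of all genes passed that rule. This comparison uses the same control siRNA arrays as knockdown, so the 2 sets of changes are not independent. Of the 58 genes 28 both fell in knockdown and were lower in EV, as were 1480 of all 17958 genes. Another 4 fell in knockdown and were higher in EV, as were 237 of all genes. The keratins KRT8 and KRT18 were lower in the same EV arrays, as given above, and their part in these differences was not tested. H3 and H1 were almost all lower, with 7 of 9 H3 genes lower and 0 higher and 5 of 6 H1 genes lower. H4 had 8 of 13 lower and 1 higher, H2A 6 of 14 lower and 2 higher, and H2B was even with 5 of 16 lower and 5 higher. With the shared reading of H4C14 and H4C15 counted once, 30 of 57 histone genes were lower in EV. H2AC15 (-0.99), H1-5 (-0.84) and H4C4 (-0.78) had the lowest log2 differences, with limma adjusted p = 0.000741, 0.000225 and 0.000189.

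The 9 genes higher in EV were H1-6, H2AC14, H2AC25, H2BC5, H2BC8, H2BC11, H2BC21, H2BC26 and H4C8, and those not named above are given here because of this result, after their values were seen. H2BC26 read 6.85, 6.47 and 6.43 with control siRNA and 7.46, 7.42 and 7.50 with EV. It was 1.84-fold higher without overlap (log2 0.88, 95% interval 0.63 to 1.12, limma adjusted p = 0.000448), and its pair partner H2AC25 was higher as well (0.35, limma adjusted p = 0.0107). H4C8 read 8.75, 8.46 and 8.45 and 9.43, 9.09 and 9.49. It was 1.72-fold higher (log2 0.78, 95% interval 0.51 to 1.06, limma adjusted p = 0.00162), although 8 other H4 genes were lower in the same arrays. Among those 8, H4C14 and H4C15 are 1 reading. H2BC21, whose values are given above, had the smallest p (log2 0.76, 95% interval 0.61 to 0.90, limma adjusted p = 4.74e-05). H1-6 stayed dim, from 4.07, 3.91 and 3.66 to 4.51, 4.42 and 4.73 (log2 0.67, limma adjusted p = 0.00285). Of these 9, H2BC8 alone passed in plasmid against EV. As background, H2BC21 and H2BC5 are known to be made also as polyadenylated mRNA outside S phase, and H1-6 belongs to testis. The form of the transcripts was not measured here.

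Averaged over the set, the log2 signal was 8.24 ± 0.02 (SD over 3 arrays) with control siRNA, 7.94 ± 0.0038 with ERβ2 siRNA, 8.07 ± 0.05 with EV and 8.07 ± 0.04 with the ERβ2 plasmid. The ERβ2 siRNA arrays (7.94 to 7.95) were below every other array, the EV (8.02 to 8.11) and plasmid arrays (8.03 to 8.11) overlapped, and the control siRNA arrays (8.21 to 8.26) were highest. The mean over all genes tested was 6.5, 6.5, 6.52 and 6.51 in the same order. The order differed by class. H2B was lowest with ERβ2 siRNA (7.44 ± 0.05) and overlapped between control siRNA (7.79 ± 0.03), EV (7.86 ± 0.08) and plasmid (7.88 ± 0.08). H3 was lowest with the plasmid (8.32 ± 0.02) and EV (8.37 ± 0.03), then ERβ2 siRNA (8.46 ± 0.05), then control siRNA (8.68 ± 0.07). H4 overlapped between ERβ2 siRNA (7.81 ± 0.03), EV (7.83 ± 0.07) and plasmid (7.81 ± 0.01), all under control siRNA (8.11 ± 0.03). These averages over members are given without a test.

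**Figure D4:**
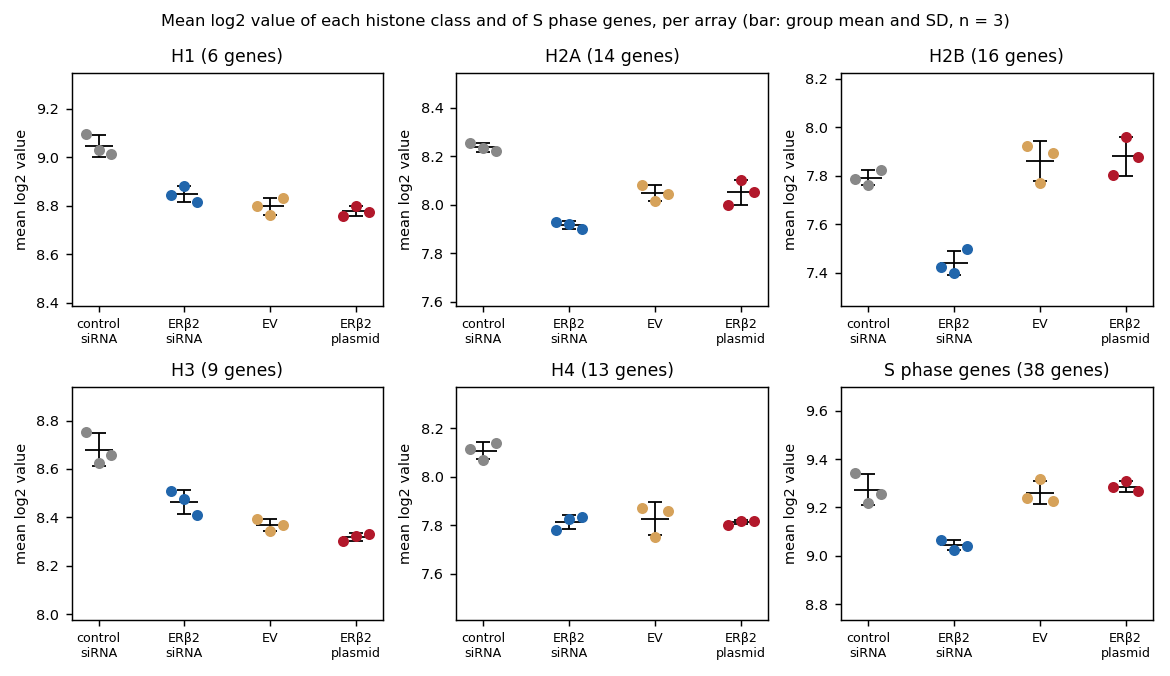
Each dot is 1 array and gives the mean log2 signal of the genes of a histone class, or of 38 S phase genes, with the group mean and SD over 3 arrays as bars. Control siRNA is highest for H1, H2A, H3 and H4, ERβ2 siRNA is lowest for H2A, H2B and the S phase genes, and EV and plasmid overlap in H1, H2A, H2B and H4.

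The genes that serve histone production were examined as lists. Histone gene transcription in S phase depends on NPAT, which is phosphorylated by cyclin E with CDK2, and on HINFP at H4 promoters. In knockdown 6 of the 7 measured genes of this list fell and 0 rose. CDK2 changed by log2 -0.39, the NPAT partner CASP8AP2 by -0.35, cyclin E2 (CCNE2) by -0.34, NPAT by -0.29, HINFP by -0.24 and cyclin E1 (CCNE1) by -0.20. Their limma adjusted p were 0.00183, 0.0245, 0.00162, 0.00798, 0.0579 and 0.0506, and GON4L did not pass (0.01). In EV minus control siRNA 1 of the 7 was lower (NPAT, -0.16) and 1 was higher (HINFP, 0.24). Processing and decay of histone mRNA showed little change in knockdown, with 2 of 13 lower (LSM1, -0.35, and the endonuclease CPSF3, -0.25) and 1 higher (LSM10 of the U7 particle, 0.20). SLBP, the stem-loop binding protein, did not pass (log2 -0.11, limma adjusted p = 0.199). Shares near 17.5% are the background of this comparison.

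Of 24 chaperones and carriers of new histones 10 fell and 3 rose in knockdown. HIRA, which deposits H3.3, changed by log2 -0.79, the H3-H4 chaperone ASF1B by -0.75, the importin IPO4 by -0.67 and MMS22L by -0.44. ASF1A, the close relative of ASF1B, rose by 0.30, as did the chromatin remodeller ATRX (0.24) and the acetyltransferase HAT1 (0.24). Of 11 replacement and variant histones, many of which are also made outside S phase, 9 fell and 0 rose. The centromeric H3 CENPA changed by -0.93, H2AZ2 by -0.61, the testis gene H3-4 by -0.47 and H2AX, which marks DNA breaks, by -0.43. Of 38 other S phase genes 19 fell and 2 rose, with RFC3 of the clamp loader at -0.90, the helicase subunit GINS1 at -0.88, MCM10 at -0.60 and ORC6 of the origin complex at -0.58. Their median was -0.16. In EV minus control siRNA 6 of these 38 were lower and 6 higher (median -0.03), 5 of 11 variant histones were lower and 0 higher, 5 of 13 processing and decay genes were lower and 2 higher, and 7 of 24 chaperones were lower and 3 higher. The background there is 22.4% lower and 19.2% higher, and differences between lists were not tested. Other RNAs without a poly(A) tail mostly did not pass, with 1 of 13 lower in knockdown (RPPH1 of RNase P, -0.19) and 1 lower and 3 higher in EV. In overexpression no gene of these lists passed the limma test. Whether any of these genes had a part in the histone changes was not tested.

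**Figure D5:**
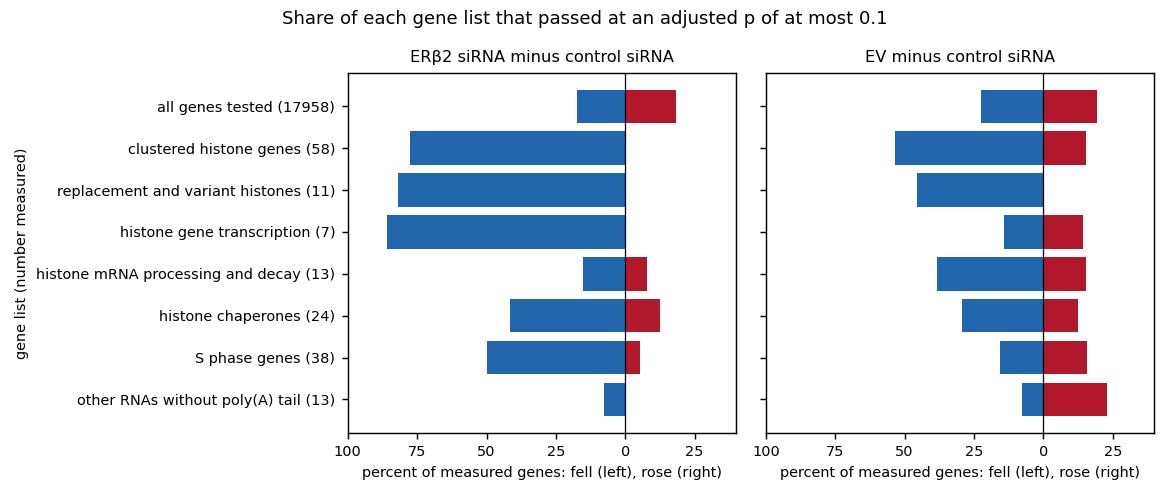
Bars give the percent of the measured genes of each list that fell (blue, left) or rose (red, right) by the threshold of 0.1 in ERβ2 siRNA minus control siRNA and in EV minus control siRNA, with all 17958 genes as the top bar. The clustered histone genes reach 77.6% fallen and 0% risen in knockdown and 53.4% fallen and 15.5% risen in EV. The variant histones are at 81.8% and 45.5% fallen and the S phase genes at 50% and 15.8%.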

How the data were processed

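BT549 RNA was hybridised to 12 Affymetrix Human Gene 1.1 ST arrays, 4 groups of 3 biological replicates. Per the labels, the authors normalized the arrays by RMA in the Affymetrix Expression Console, and the deposited values are taken as log2 signals. The log base, the genome build of the array and the software version are not given in the sources used here. RMA equalises the distribution of signals between arrays, so a shift of all mRNA at once would not be seen. Of 33297 transcript clusters 19181 carried 1 gene symbol, 2055 several and 12061 none here. The cluster with the highest mean stood for a gene, which left 17958 genes.

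Each comparison was fitted in R 4.3.3 by limma (version 3.58.1, eBayes after lmFit, 3 against 3 arrays, Benjamini-Hochberg over all genes, threshold 0.1), and the difference of effects as a contrast over 12 arrays. The scripts were tested on simulated data. Named members were, in each class, the 3 with the largest knockdown change and the brightest, the gene with the smallest knockdown change, and those that passed in overexpression or had 1 of the 10 smallest p in the difference of effects. From each other gene list up to 4 genes with the largest change were named, and all of a list of 10 or fewer. The members, gene lists and rules were chosen with earlier results of these data known. The lists were transcription of histone genes, processing and decay of their mRNA, chaperones, variant histones, S phase genes and other RNAs without a poly(A) tail. Among their genes, POU2F1, SRRT, RNU7-1, MIF4GD, H3-3A, H2BU1, H2BC12L, PCNA and 6 small RNAs had no single-symbol cluster and H4-16 was counted as H4C16. Promoter windows came from RefSeq. Protein sequences were not used here. Precision is limited by the number of arrays.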

Additional observations from a re-analysis of the deposited data

Results flagged for a closer look

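For 19 of the named histone genes the change after knockdown differed from the change after overexpression in a test of the difference itself (limma, contrast over 12 arrays). Time after transfection and reagent also differ between the 2 changes and cannot be told apart from the ERβ2 level. All 19 differences were negative, which the choice of names largely fixes, since 10 of these genes were named for the smallest p in this test and most others for the largest knockdown change. Over all 58 histone genes the difference passed for 28, all negative. In H2B the differences on the log2 scale were -1.02 for H2BC8, -0.67 for H2BC14, -0.47 for H2BC3 and -0.41 for H2BC21. In H2A they were -0.97 for H2AC15, -0.47 for H2AC16, -0.46 for H2AC13, -0.41 for H2AC20, -0.36 for H2AC4 and -0.19 for H2AC21. In H4 they were -0.65 for H4C13, -0.61 for H4C4, -0.53 for H4C3 and -0.54 for the shared reading of H4C14 and H4C15. In H3 and H1 they were -0.40 for H3C12, -0.21 for H3C11, -0.41 for H1-2 and -0.36 for H1-5. All but H2BC8 had an overexpression change that did not pass. The difference for H3C11 kept its call in 8 of 24 alternative settings, that for H2AC21 in 12 of 24 and that for H2BC21 in 14 of 24.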

How the results depend on the processing

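Among the 24 named histone genes, no called change had the opposite sign in an alternative run here. Apart from the added 1.5-fold rule, the number of histone genes that fell in knockdown stayed at 38 to 54 (54 with the clusters of several histone symbols added), 0 rose in each, and EV minus control siRNA gave 26 to 37 lower and 7 to 11 higher. With a fold of at least 1.5 in addition, 3 fell in knockdown, 8 were lower and 4 higher in EV, 5 were below 0 in the difference of effects and 0 rose in overexpression. The knockdown median was -0.23 with each array centred on its median, and the EV median was -0.29 for genes with a mean log2 signal of at least 5 and -0.28 after quantile normalization again. The count of genes that rose in overexpression was 0 with all transcript clusters in the fit and with the mean of all clusters of a gene. It was also 0 with the methods' t-test by Benjamini-Hochberg or by q-values, with 1 fit of all 4 groups and at an adjusted p under 0.05. The gene lost was H2BC8 (limma adjusted p = 0.0794 in the main run), which a threshold of 0.05 removes by definition. In the other settings named here its log2 change stayed at 0.53, with adjusted p from limma or the t-test of 0.146 to 0.321. Leaving out each array in turn, the counts were 39 to 41 fallen in knockdown, 0 to 1 risen in overexpression, 26 to 31 lower and 7 to 10 higher in EV, and 21 to 29 below 0 in the difference of effects. Without single arrays the EV call was lost for H1-4 (any array but control siRNA replicate 1, limma adjusted p = 0.113 to 0.193) and for H2AC16 (without control siRNA replicate 1, 0.102). H4C14 and H4C15 counted once, chosen after seeing the data, gave 44 fallen of 57 in knockdown.

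With the replicate number as a block, 46 histone genes fell in knockdown, 0 rose in overexpression, 28 were lower and 9 higher in EV, and 26 were below 0 in the difference of effects. Same-numbered arrays deviated together only weakly in knockdown (r = 0.27, 0.12 and 0.06) and ERβ2 siRNA replicate 3 correlated best with control siRNA replicate 2 (r = 0.12), so the numbers were not taken as pairs.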
